A study of Mus musculus with 36 samples.

Results

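The genes described here are 41 genes of the heart muscle cell, out of 49943 RefSeq genes on chromosomes 1 to 19, X and Y of the GRCm38 assembly. They were chosen by name for their known roles in heart muscle and the rule used no lesion value. They comprised 17 genes of the sarcomere, 6 of the Z-disc and cytoskeleton, 10 of calcium handling and ion channels, 6 cardiac regulators and 2 natriuretic peptides. Each gene was taken as its whole RefSeq span, and 12 of them were at least 100 kb long (called long here, 3882.47 kb in all) while 29 were shorter (916.285 kb in all). The lengths ran from 1.35 kb for Nppa to 610 kb for Cacna1c.

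The study profiled DNA damage at nucleotide resolution in male C57BL/6J mice aged 24 months, with each tissue taken from 2 mice. The 6 tissues were heart, brain, liver, bone marrow, peripheral blood mononuclear cells (PBMCs) and sperm. Single-strand breaks (SSBs), where the backbone of a DNA strand is interrupted, were mapped with SSiNGLe, and abasic (AP) sites, sugars that no longer carry their base, were mapped with SSiNGLe-AP. Each tissue had 2 libraries per assay, which gave 12 SSB and 12 AP libraries, and by the labels the SSB and AP library of a given tissue and number came from a single sample. No treatment or genotype was varied, and the RNA samples were not analysed here. Red cells had been lysed in bone marrow, PBMCs had been taken on a Ficoll gradient and sperm were motile epididymal cells, and sperm DNA was extracted with another kit than the other tissues. The hearts were whole organs, so cardiac muscle cells shared them with fibroblasts, endothelium and blood. Lesion positions in DNA hold no expression markers, and the tissue labels could therefore not be checked here.

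Heart muscle cells contract when calcium enters through the L-type channel, releases more calcium from the sarcoplasmic reticulum through the ryanodine receptor, and lets myosin pull on actin within the sarcomere, after which pumps and exchangers clear the calcium. Sarcomeres are anchored at Z-discs, titin spans them as a spring, and a small group of transcription factors keeps this set of genes active. Heart muscle cells divide rarely in the adult and transcribe many of these genes heavily. Both lesion types arise spontaneously in all cells and are handled by base excision and single-strand break repair.

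The question of the first comparison was whether heart muscle genes carry more or fewer lesions in the heart than in the 5 other tissues. Transcription of the members was not measured here in any of these tissues. The measure was LPKM (LPKM-SSB and LPKM-AP), the lesion positions of a gene times 1e+09, divided by its length in bases and by the positions of the library, with every position counted once. Libraries held 225011 to 1041983 SSB positions and 460719 to 963258 AP positions. The SSB libraries of heart held 446381 and 1041983 positions, so a single SSB heart library was the deepest of all. In it 1.23% of positions had a count above 1, and in the other SSB heart library 0.793%, against at most 0.827% in the SSB libraries of other tissues. At equal depth, with summed counts in place of positions, or without the second SSB heart library, edgeR called 0 genes for SSBs in heart against the other tissues, with 1376, 2131 and 1495 genes at an unadjusted p under 0.05, and DESeq2 called 0 on all libraries.

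Taken as one block of DNA, the 41 genes had nearly the same lesion density in heart as elsewhere. Their summed SSB density was 0.591 and 0.611 LPKM in the hearts and 0.553 to 0.607 (median 0.580) in the other 10 libraries, a ratio of means of 1.04. The summed AP density was 0.635 and 0.641 in the hearts and 0.591 to 0.648 (median 0.603) elsewhere, a ratio of 1.04. The second heart library was the highest of all SSB libraries, and the other heart values lay in the upper part of the ranges of the other tissues. The groups overlapped for SSBs and for AP sites. No test was made of these sums, since the genes were chosen with results known.

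Long and short members behaved alike in this respect. The 12 long genes had a summed SSB density of 0.545 and 0.560 in heart against 0.536 ± 0.0232 (SD, n = 10) elsewhere (ratio 1.03), and a summed AP density of 0.608 and 0.603 against 0.578 ± 0.0186 (ratio 1.05). The 29 short genes stood at 0.782 and 0.830 against 0.760 ± 0.0435 for SSBs (ratio 1.06), and at 0.750 and 0.801 against 0.752 ± 0.0605 for AP sites (ratio 1.03). Heart and other libraries overlapped in all 4 cases. Short members carried more lesions per kilobase than long ones in every tissue, as the plot of summed density by library shows. A mean that gave every member equal weight put the heart at a log2 ratio of 0.13 for SSBs and -0.01 for AP sites, so the small excess for AP sites rested on how members were weighted.

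**Figure D1:**
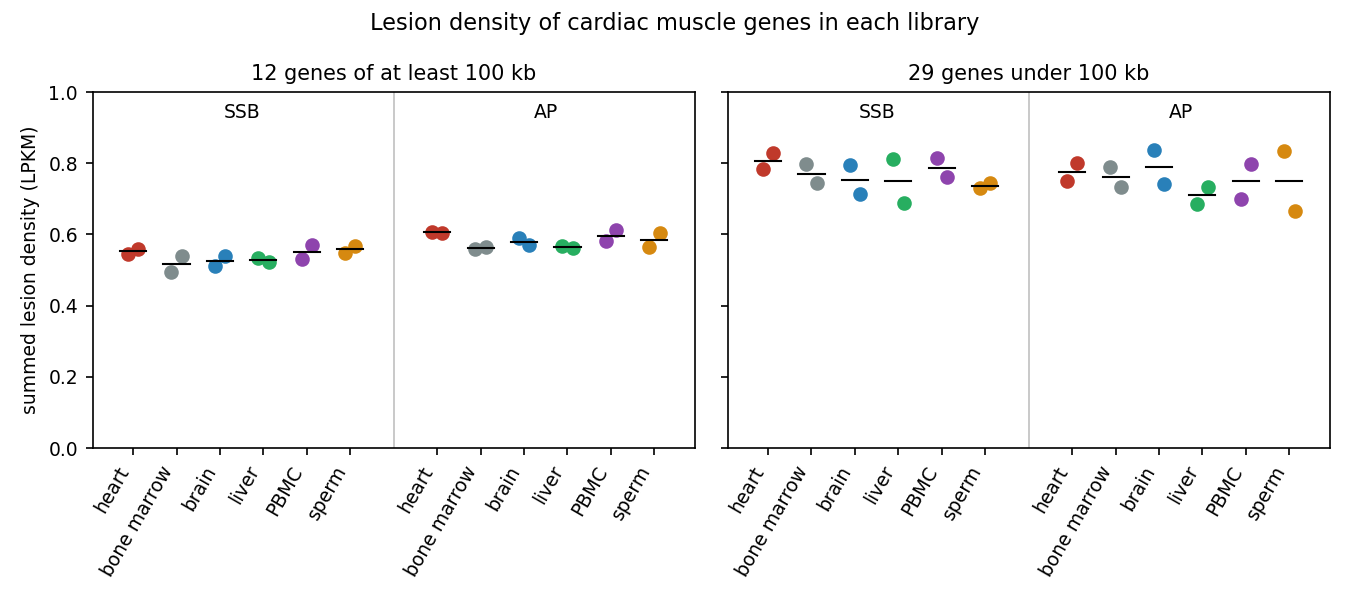
Summed lesion density (LPKM, y axis) of the 12 long and 29 short cardiac muscle genes in each of 24 libraries, by tissue and assay. Each point is a library and each bar the mean of 2. The heart libraries of long genes sit at 0.545 and 0.560 for SSBs and at 0.608 and 0.603 for AP sites, within the range of the other tissues.

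Among the 17 sarcomere genes, those coding for the contractile filaments and their scaffold, 9 had a higher mean LPKM-SSB in heart than elsewhere and 9 a higher mean LPKM-AP, with median ratios of 1.05 and 1.04. Ttn codes for titin, the giant elastic protein of the sarcomere, and spans chr2:76703980-76982557 (GRCm38, 279 kb). Its LPKM-SSB was 0.651 and 0.699 in the hearts and 0.603 to 0.793 (median 0.700) in the other 10 libraries. Its LPKM-AP was 0.983 and 1.08 in the hearts and 0.770 to 1.03 (median 0.840) elsewhere. For SSBs the hearts lay within the range of the others, and for AP sites the second heart library was the highest of 12 while the first was exceeded by a PBMC library. Nebl codes for nebulette, an actin-binding Z-disc protein, and Myom1 for myomesin, which crosslinks myosin at the M-band. Nebl had an LPKM-SSB of 0.457 and 0.460 in heart against 0.346 to 0.494 (median 0.436), and an LPKM-AP of 0.433 and 0.456 against 0.391 to 0.554 (median 0.459). Myom1 had an LPKM-SSB of 0.544 and 0.598 against 0.318 to 0.672 (median 0.439), and an LPKM-AP of 0.677 and 0.561 against 0.532 to 0.660 (median 0.584). Both genes overlapped between heart and the other tissues in both assays, apart from the first heart library of Myom1, which was the highest of the AP libraries.

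The best known short sarcomere genes did not set the heart apart either, with one exception in the SSB libraries. Myh6 codes for the alpha myosin heavy chain, the main motor of the adult mouse heart, and had an LPKM-SSB of 0.944 and 1.21 in heart against 0.413 to 1.70 (median 0.916) and an LPKM-AP of 0.604 and 0.995 against 0.527 to 1.47 (median 1.06). Myh7, the beta myosin heavy chain of the fetal heart, had an LPKM-SSB of 1.50 and 0.762 against 0.371 to 1.27 (median 0.925) and an LPKM-AP of 0.911 and 1.02 against 0.926 to 1.29 (median 0.984). The heart values of both genes lay among those of the other tissues, except that for Myh7 a heart library was the highest of the SSB libraries and a heart library the lowest of the AP libraries. Myh6 and Myh7 are close copies that lie side by side, and how reads matching both were placed was not tested. Tnnt2, the cardiac troponin T that ties the troponin complex to tropomyosin, had an LPKM-SSB of 0.562 and 1.44 against 0.205 to 3.12 (median 0.976) and an LPKM-AP of 1.60 and 0.723 against 0.792 to 2.00 (median 1.12). Actc1, the cardiac actin of the thin filament, had an LPKM-SSB of 1.60 and 1.37 against 0.00 to 1.59 (median 0.711) and an LPKM-AP of 1.08 and 0.516 against 0.288 to 1.63 (median 0.895), on at most 8 positions in a library. Both genes overlapped in both assays, with a heart library lowest for AP sites in Tnnt2 and highest for SSBs in Actc1. Myl2, the regulatory light chain of ventricular myosin, was the exception, with an LPKM-SSB of 1.30 and 1.34 in heart against 0.386 to 1.29 (median 0.885). Both heart libraries of Myl2 lay above all others for SSBs, the lower of them only just, while its LPKM-AP of 0.643 and 0.834 lay within 0.198 to 0.968 (median 0.574). Myl2 shares 26.1% of its span with Ccdc63, whose positions cannot be told apart from its own.

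The remaining sarcomere members were the M-band gene Myom2, the alpha-actinin gene Actn2, tropomyosin Tpm1, myosin-binding protein C (Mybpc3), the light chains Myl3 and Myl7, troponins Tnni3 and Tnnc1, and the thin filament regulator Lmod2. Their heart to other ratios ran from 0.488 (Mybpc3) to 1.36 (Tnnc1) for SSBs and from 0.621 (Myl7) to 1.22 (Mybpc3) for AP sites. All overlapped between heart and the other tissues in both assays. Mybpc3 had the lowest mean LPKM-SSB in heart of the 6 tissues (0.626, against 1.28 ± 0.490 in the other 10 libraries), and its AP value lay on the other side of the mean.

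In the Z-disc and cytoskeleton group, which holds the sarcomere in register and links it to the membrane, 4 of 6 members had a higher mean LPKM-SSB in heart and 3 of 6 a higher mean LPKM-AP. Des codes for desmin, the intermediate filament of muscle, and had the largest SSB ratio of the group at 2.44. Its LPKM-SSB was 2.16 and 1.51 in the hearts, above all other libraries at 0.271 to 1.30 (median 0.728), on 8 and 13 positions against 1 to 5. Its LPKM-AP was 0.731 and 1.04 in the hearts, within the 0.138 to 1.53 (median 0.769) of the others. Sorbs2, an adaptor of the Z-disc and intercalated disc, had an LPKM-SSB of 0.546 and 0.495 against 0.306 to 0.644 (median 0.491) and an LPKM-AP of 0.602 and 0.541 against 0.470 to 0.610 (median 0.556), with overlap in both. The other 4 members were the scaffold proteins Pdlim5 and Ldb3, the muscle LIM protein gene Csrp3 and the actin-binding Xirp2. Their ratios ran from 0.698 (Xirp2) to 1.11 (Csrp3) for SSBs and from 0.873 (Ldb3) to 1.06 (Pdlim5) for AP sites, again with overlap.

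The 10 calcium handling and ion channel genes included the 3 longest members. Cacna1c, at chr6:118587240-119197384 (GRCm38), codes for the pore of the L-type calcium channel. It held 91 to 467 SSB positions and 201 to 494 AP positions in a library. Its LPKM-SSB was 0.771 and 0.735 in heart against 0.606 to 0.809 (median 0.725), and its LPKM-AP was 0.952 and 0.806 against 0.677 to 0.878 (median 0.824). The hearts lay within the SSB range, and 1 of them was the highest AP library. Ryr2, the calcium release channel of the sarcoplasmic reticulum, had an LPKM-SSB of 0.445 and 0.490 against 0.417 to 0.570 (median 0.482) and an LPKM-AP of 0.484 and 0.508 against 0.461 to 0.539 (median 0.484). Slc8a1, the sodium-calcium exchanger that clears calcium from the cell, had an LPKM-SSB of 0.497 and 0.565 against 0.356 to 0.815 (median 0.521) and an LPKM-AP of 0.544 and 0.608 against 0.503 to 0.636 (median 0.580). Both genes gave heart values near the middle of the other tissues.

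Kcnq1 codes for a potassium channel that ends the action potential, and Trdn for triadin, which ties calsequestrin to the release channel. Kcnq1 had an LPKM-SSB of 0.742 and 0.806 in heart against 0.602 to 0.981 (median 0.751) and an LPKM-AP of 0.871 and 0.734 against 0.741 to 0.879 (median 0.781). Trdn had an LPKM-SSB of 0.182 and 0.185 against 0.105 to 0.239 (median 0.152) and an LPKM-AP of 0.148 and 0.187 against 0.0991 to 0.214 (median 0.153). Trdn had the lowest mean of the 41 genes in both assays, with 0.163 ± 0.0368 LPKM-SSB and 0.154 ± 0.0318 LPKM-AP over 12 libraries each. Kcnq1 shares 26.1% of its span with its antisense transcript gene Kcnq1ot1.

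Atp2a2, which codes for the SERCA2 pump that returns calcium to the sarcoplasmic reticulum, was the only member that was denser in both heart libraries than in all others for both lesion types. Its LPKM-SSB was 0.782 and 0.709 in the hearts and 0.252 to 0.627 (median 0.381) in the other 10 libraries, on 17 and 36 positions against 3 to 14. Its LPKM-AP was 0.747 and 0.711 in the hearts and 0.297 to 0.677 (median 0.556) elsewhere, on 30 and 24 positions against 7 to 30. The ratios of means were 1.75 and 1.42. Across all genes this order in both assays occurred for 3 of 41210 (0.00728%), namely Atp2a2, Mmp23 and Gm53059, and in a single assay for 343 (SSBs) and 573 (AP sites). The product of the 2 single-assay shares times the 41210 genes came to 4.77, so 3 genes were not more than that number. Atp2a2 was singled out after its values were seen, and the difference did not pass the test across all genes given below.

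The other members of this group were calsequestrin (Casq2), phospholamban (Pln), the pacemaker channel Hcn4 and connexin 43 (Gja1), the gap junction protein that couples heart muscle cells. Their ratios ran from 0.884 (Gja1) to 1.67 (Pln) for SSBs and from 0.622 (Pln) to 1.11 (Casq2) for AP sites, with overlap throughout. Pln lies wholly within the span of Cep85l and held at most 6 positions in a library. Of the 33 members with a RefSeq promoter window (48 windows of 250 bases before to 50 after a gene start), the Gja1 window held the most SSB positions. Within its upstream 250 bases (GRCm38.p6, chr10:56377050-56377299, + strand) there were 8 SSB positions and 0 AP positions over all 24 libraries, 3 of them from the second heart library. The next member had 6 SSB positions. The sequence is shown 5′ to 3′ to place these breaks, and capitals mark the nucleotides listed as lesions on either strand.
Gja1: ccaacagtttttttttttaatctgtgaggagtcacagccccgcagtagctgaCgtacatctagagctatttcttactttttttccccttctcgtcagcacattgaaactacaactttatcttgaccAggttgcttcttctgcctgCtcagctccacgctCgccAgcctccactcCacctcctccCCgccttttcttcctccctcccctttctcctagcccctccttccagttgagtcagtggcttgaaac
The breaks lay between 65 and 198 bases before the start, each in 1 library with a count of 1. The most AP positions were found upstream of Myh6 (chr14:54966608-54966857, - strand), with 6 AP and 4 SSB positions at 8 nucleotides, 1 of the AP and 1 of the SSB positions being from hearts.
Myh6: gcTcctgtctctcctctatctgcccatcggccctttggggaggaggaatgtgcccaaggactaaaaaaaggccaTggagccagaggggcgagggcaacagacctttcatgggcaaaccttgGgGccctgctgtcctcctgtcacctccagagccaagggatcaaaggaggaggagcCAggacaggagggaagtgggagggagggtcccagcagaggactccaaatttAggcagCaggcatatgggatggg
Of these nucleotides 2 were listed in more than 1 library, at 74 bases before the start in a sperm and a PBMC AP library and at 23 bases in a brain SSB and a heart AP library. Over the 48 windows the density was 1.01 ± 0.385 LPKM-SSB and 0.869 ± 0.306 LPKM-AP (SD, n = 12), against 1.21 ± 0.357 and 0.802 ± 0.0641 over all 32851 windows. The member windows held 86 SSB and 109 AP positions in all libraries together, and both promoters were chosen after these numbers were seen.

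Of the 6 regulators, 5 had a higher mean LPKM-SSB in heart and 3 a higher mean LPKM-AP. Rbm20 codes for the splicing factor that sets titin isoforms, and had an LPKM-SSB of 0.772 and 0.726 in heart against 0.479 to 0.888 (median 0.594) and an LPKM-AP of 0.606 and 0.791 against 0.617 to 0.783 (median 0.718). Mef2c, a transcription factor of muscle and of several other lineages, had an LPKM-SSB of 0.563 and 0.488 against 0.428 to 0.836 (median 0.514) and an LPKM-AP of 0.431 and 0.513 against 0.391 to 0.526 (median 0.469). Gata4, a zinc finger factor of heart and gut development, had an LPKM-SSB of 0.892 and 0.844 against 0.647 to 1.10 (median 0.763) and an LPKM-AP of 0.883 and 1.03 against 0.553 to 0.984 (median 0.768). All 3 overlapped between heart and the rest. For Gata4 the highest AP library was a heart, and for Rbm20 the hearts were the highest and the lowest of the AP libraries. Tbx5, Nkx2-5 and Myocd, factors that drive cardiac and smooth muscle genes, had ratios of 1.24, 1.03 and 1.13 for SSBs and of 1.18, 0.758 and 0.851 for AP sites.

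The natriuretic peptide genes Nppa and Nppb, which code for hormones released by stretched atria and ventricles, were too short for a comparison at this depth. Nppa held 0 to 6 SSB positions in a library, with none in 6 libraries, and Nppb 0 to 2, with none in 6. The LPKM-SSB of Nppa was 1.66 and 4.26 in heart, from 1 and 6 positions, against 0.00 to 2.65 (median 0.00). Its LPKM-AP was 1.79 and 0.00 against 0.00 to 6.42 (median 1.28). Nppb had an LPKM-SSB of 0.00 and 0.676 against 0.00 to 3.90 (median 1.08) and an LPKM-AP of 1.71 and 3.05 against 0.00 to 2.23 (median 0.403). A count of 0 still allows up to 3 positions, which for the members at 0 in some library (8 for SSBs, 5 for AP sites) came to between 0.507 and 9.85 LPKM. Such limits cover counting error only, and no order of tissues was read from these 2 genes.

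**Figure D2:**
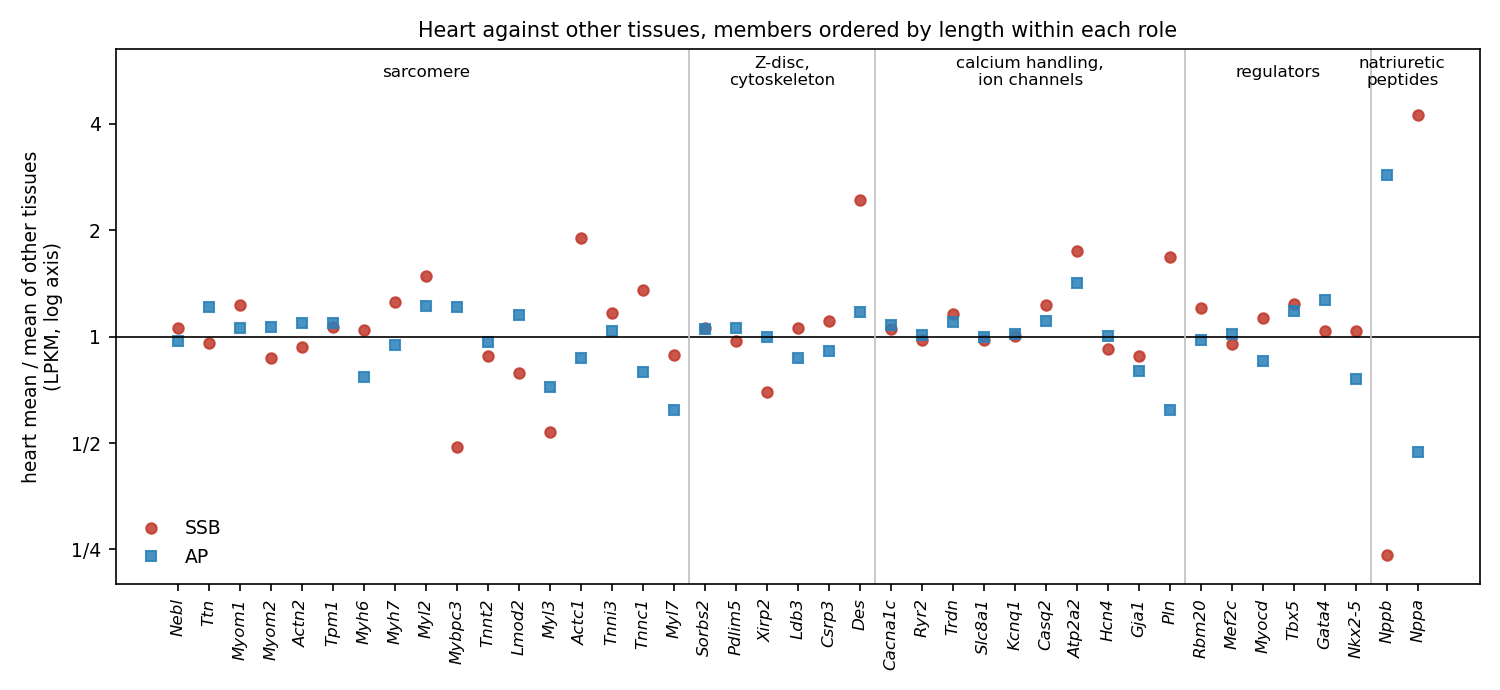
Ratio of the mean LPKM of 2 heart libraries to that of the other 10 (log y axis) for each of the 41 genes (x axis), with circles for SSBs and squares for AP sites, grouped by role and ordered by length. The 12 long genes lie between 0.952 and 1.23, Atp2a2 lies above 1 in both assays (1.75 and 1.42), and the widest departures belong to the shortest genes, Nppa (4.23 for SSBs) and Nppb (0.241).

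Across the list, 25 of 41 members had a higher mean in heart for SSBs and 23 of 41 for AP sites. In the fits described below, the log2 difference was above 0 for 35 members in SSBs and 27 in AP sites with TMM, against 66.2% and 57.2% of all genes tested, and for 31 and 24 members with scaling by library total. Both heart libraries lay above the other 10 for 3 members in SSBs (Atp2a2, Myl2 and Des), against 0.717% of all genes tested, and for 1 member in AP sites (Atp2a2), against 1.40%. No member lay below, against 0.364% and 0.882% of all genes. Heart was the tissue of highest mean for 11 members in SSBs and 6 in AP sites, and of lowest mean for 5 and 3. PBMCs and sperm were highest for 9 and 8 members in SSBs, and brain for 11 in AP sites, so no tissue held the top rank for most members.

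Tested gene by gene with edgeR's quasi-likelihood test on positions (TMM normalization, Benjamini-Hochberg adjustment over all genes tested), none of the 41 members passed an adjusted p of 0.05 in heart against the other tissues. For SSBs 3 of 38486 genes passed (0.00780%), and DESeq2 called 0, with 101 genes at an unadjusted p under 0.05. At an unadjusted p under 0.05 there were 8 members (19.5%) for SSBs, all higher in heart, against 5.20% of all genes and 11.0% of long genes. The smallest p was that of Atp2a2, with a log2 fold change of 0.87 ± 0.27 (SE) and an edgeR adjusted p of 0.597. It was followed by Rbm20 (0.35), Des (1.32), Myom1 (0.47), Myl2 (0.75), Tbx5 (0.41), Nppa (2.33) and Trdn (0.37) on the log2 scale. Of these, Nppa was too short for a comparison at this depth, as stated above. With scaling by library total the count was 6 higher and 1 lower (Mybpc3), against 3.36% and 1.39% of all genes. The median log2 difference over the members was 0.19, and over all genes tested 0.20, but the members held a larger share of long genes. By class it was 0.14 for long members against 0.10 for long genes. For short members it was 0.27, against 0.23 for all short genes. With scaling by library total the medians of all members and all genes were 0.10 and 0.11. Those of long members and long genes were then 0.05 and 0.005. With TMM the median was 0.02 among genes with a mean of at least 5 positions. Without the second SSB heart library the median of all genes was 0.04.

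For AP sites 0 of 41374 genes passed by edgeR and 0 by DESeq2 (0.00%), with 1694 and 130 genes at an unadjusted p under 0.05. Among the members these were Ttn, with a log2 fold change of 0.32 ± 0.10 (SE), Atp2a2 with one of 0.55 ± 0.24 (SE) and Gata4 with one of 0.38 ± 0.17 (SE), all with an edgeR adjusted p of 0.9999, against 2.97% of all genes in this direction. Gata4 had an unadjusted p of 0.05 or more with scaling by library total, while Ttn and Atp2a2 stayed under it. At equal depth Ttn had a log2 fold change of 0.19 and an unadjusted edgeR p of 0.244. Without the second AP heart library its log2 fold change was 0.24. The members' median was 0.07 and that of all genes 0.08, which without the first AP heart library was -0.02. By class it was 0.09 for long members against 0.05 for long genes, and 0.05 for short members against 0.09 for all short genes. The difference between the heart contrasts of the assays, tested as an interaction, passed for 0 of 41210 genes (0.00%) by edgeR and by DESeq2, with 1744 and 306 genes at an unadjusted p under 0.05. Mybpc3 (-0.98, against 1.10% of all genes in this direction) and Myocd (0.50, against 3.13%) were the members among these, on the log2 scale and positive where the heart excess was larger for SSBs. With scaling by library total they were Mybpc3 (-1.03) and Ttn (-0.32), while under TMM Ttn gave -0.27 ± 0.16 (SE) on the log2 scale.

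Over all 6 tissues at once, 48 of 38486 genes differed for SSBs (0.125%) by edgeR's quasi-likelihood F test and none of them was a member. The 7 members with an unadjusted p under 0.05 were Slc8a1, Sorbs2, Myocd, Myom1, Trdn, Atp2a2 and Rbm20, against 4.85% of all genes and 22.2% of long genes. Slc8a1 had its highest mean LPKM-SSB in sperm (0.733 ± 0.117, SD, n = 2) and its lowest in brain (0.482 ± 0.179). Sorbs2 was lowest in bone marrow (0.378 ± 0.102) and between 0.500 and 0.537 in the other 5 tissues, and Myocd was highest in sperm (0.968) with heart next (0.760 ± 0.0753). The sperm libraries also differ from the others in the extraction kit, and tissue and kit cannot be told apart. For AP sites 0 of 41374 genes differed (0.00% by edgeR, 0 by DESeq2), with 1219 and 18 at an unadjusted p under 0.05. Ttn was the only member among the 1219, which were 2.95% of all genes.

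The clearest result on these genes came from the second comparison, between the lesion types. Ttn and Cacna1c carried fewer SSBs than AP sites, relative to each library's total, in nearly every sample. The LPKM-SSB of Ttn over 12 libraries was 0.603 to 0.793 with a median of 0.696, and its LPKM-AP 0.770 to 1.08 with a median of 0.871. AP lay above SSB in 12 of 12 samples, from 0.797 against 0.766 in the first sperm sample to 1.08 against 0.699 in the second heart, although the ranges of the assays overlapped. No other member had this order in 12 of 12 samples, and 0.0946% of all genes and 0.913% of long genes had it. In edgeR's quasi-likelihood test with tissue as a covariate, Ttn had a log2 fold change of -0.43 ± 0.07 (SE) for SSB against AP and an adjusted p of 2.15e-06, which was number 8 of 41210 genes in order of p with TMM, 19 with the size factors of DESeq2 and 21 with scaling by library total. The span of Ttn overlapped no other RefSeq gene.

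For Cacna1c the LPKM-SSB was 0.606 to 0.809 with a median of 0.728 and the LPKM-AP 0.677 to 0.952 with a median of 0.824. AP was the higher in 11 of 12 samples, the exception being the first liver, with 0.724 against 0.677. The log2 fold change was -0.28 ± 0.06 (SE) with an edgeR adjusted p of 0.000591. Cacna1c shares parts of its span with 7 other genes, the largest protein-coding part being the 3.63% under Dcp1b.

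**Figure D3:**
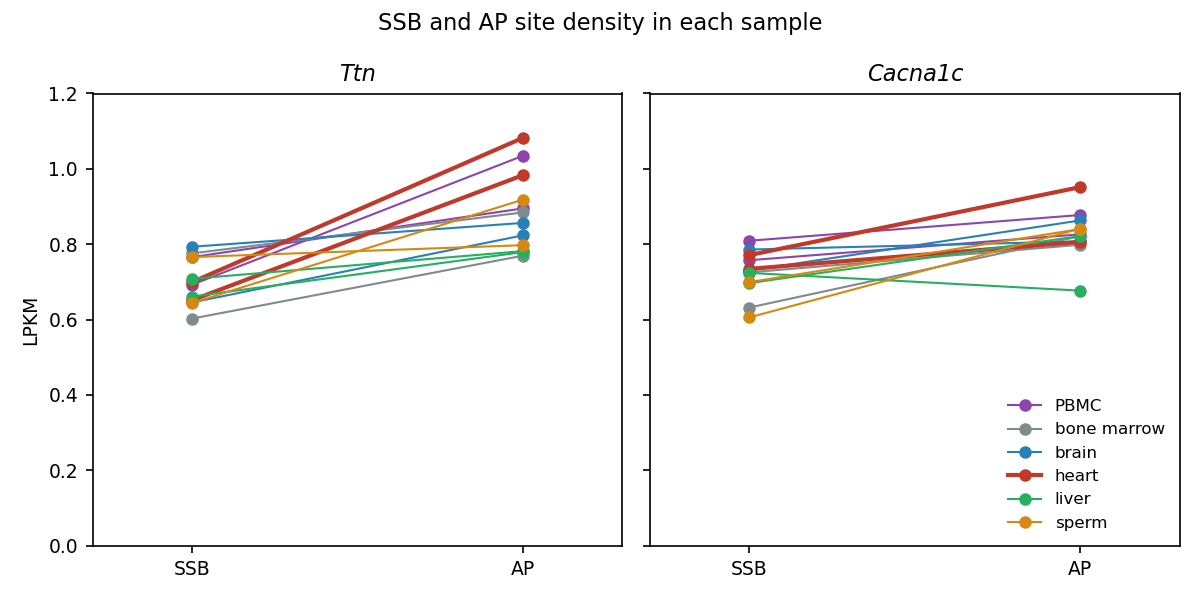
LPKM (y axis, from 0) of Ttn and Cacna1c in the SSB and the AP library of each of 12 samples, joined by a line and coloured by tissue. All 12 Ttn lines go up from SSB to AP, the steepest being that of the second heart sample, and 11 of 12 Cacna1c lines do.

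These 2 members were called among 419 of 41210 genes (1.02%) by edgeR. Both were long, and 2 of 12 long members stood against 8.25% of all long genes, of which 223 were lower and 3 higher for SSBs. Of the calls 93 were higher and 326 lower for SSBs with TMM, whereas with scaling by library total 143 were higher and 74 lower, and with size factors of DESeq2 130 and 91. TMM placed the median of all genes at -0.08 and that of long genes at -0.11, against 0.01 and -0.03 by library total. Relative to the median of long genes Ttn stood at -0.31 and Cacna1c at -0.17 under TMM, and at -0.31 and -0.16 by library total, with edgeR adjusted p of 0.000187 and 0.0388 in the latter. Among 2739 long genes 28 had a lower value than Ttn and 258 a lower one than Cacna1c. With all libraries thinned to 225011 positions neither passed by edgeR, with log2 fold changes of -0.28 and -0.25 and adjusted p of 0.416 and 0.281.

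None of the other members passed by edgeR. Counting Ttn and Cacna1c, 11 members had an unadjusted p under 0.05 with the lower value for SSBs and 2 with the higher, against 7.98% and 3.62% of all genes, and 9 of the 12 long members, both called genes included, were among the lower ones, against 30.1% of long genes. By library total the counts were 4 lower and 4 higher, and the 4 lower ones were long and again held Ttn and Cacna1c, against 14.0% of long genes. Myom1 came closest to the threshold, with a log2 fold change of -0.36 ± 0.10 (SE) and an edgeR adjusted p of 0.0589, and passed it when any one of 4 single samples was left out. Sorbs2 (-0.24, adjusted p 0.0955) and Rbm20 (-0.23, adjusted p 0.152) did not pass by edgeR. On the other side stood Myl2 (0.52, adjusted p 0.227) and the homeobox gene Nkx2-5 (0.59, adjusted p 0.410), which did not pass by edgeR either.

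Summed over members, the long genes had 0.539 ± 0.0222 LPKM-SSB and 0.582 ± 0.0201 LPKM-AP (SD, n = 12), with AP the higher in 12 of 12 samples and a ratio of 0.925. This sum includes Ttn and Cacna1c, and the ratio without them was not computed. They held 6.96% and 15.9% of the SSB positions of all 41 members, and 8.39% and 17.2% of the AP positions. All long genes of the series had a ratio of 0.971, with AP the higher in 11 of 12 samples. The short members had 0.768 ± 0.0444 and 0.756 ± 0.0566, with AP the higher in 5 of 12 samples and a ratio of 1.02, the same as the 1.02 of all short genes. The direction went with gene length in the members as it did over all genes. The assays differ in chemistry and library construction, which cannot be told apart from the lesion types.

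**Figure D4:**
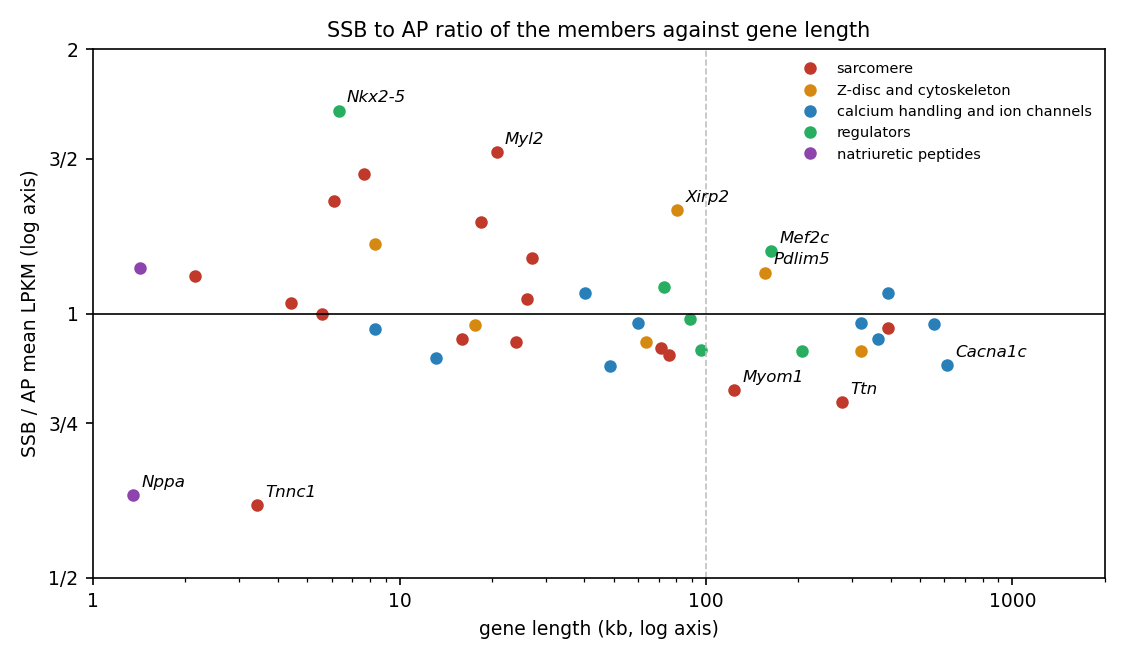
Ratio of mean LPKM-SSB to mean LPKM-AP (log y axis) against gene length in kb (log x axis) for the 41 genes, coloured by role, with a dashed line at 100 kb. Of the 12 long genes 9 lie below 1, with Ttn lowest at 0.792, while the short genes spread from 0.605 (Tnnc1) to 1.70 (Nkx2-5).

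Within Ttn the mean excess of AP sites differed between parts of the gene, a difference that was not tested. Divided into 10 equal parts from its start, Ttn had the higher mean LPKM-AP in 10 of 10. The gap was narrowest in the sixth part, at 0.584 ± 0.160 against 0.568 ± 0.186 (SD), and widest in the eighth, at 1.01 against 0.657. It was also within the SDs in the fifth (0.568 against 0.532), and the highest values were in the ninth (1.28 against 0.976). Both lesion types were scarcest in the first, the fifth and the sixth part and densest in the last pair. Cacna1c had the higher LPKM-AP in 9 of 10 parts, with the widest gap in the fifth (1.09 against 0.802). Among the other long members with a known strand the number of parts with more AP ran from 1 (Mef2c) to 8 (Sorbs2), and the exon structure was not used here.

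**Figure D5:**
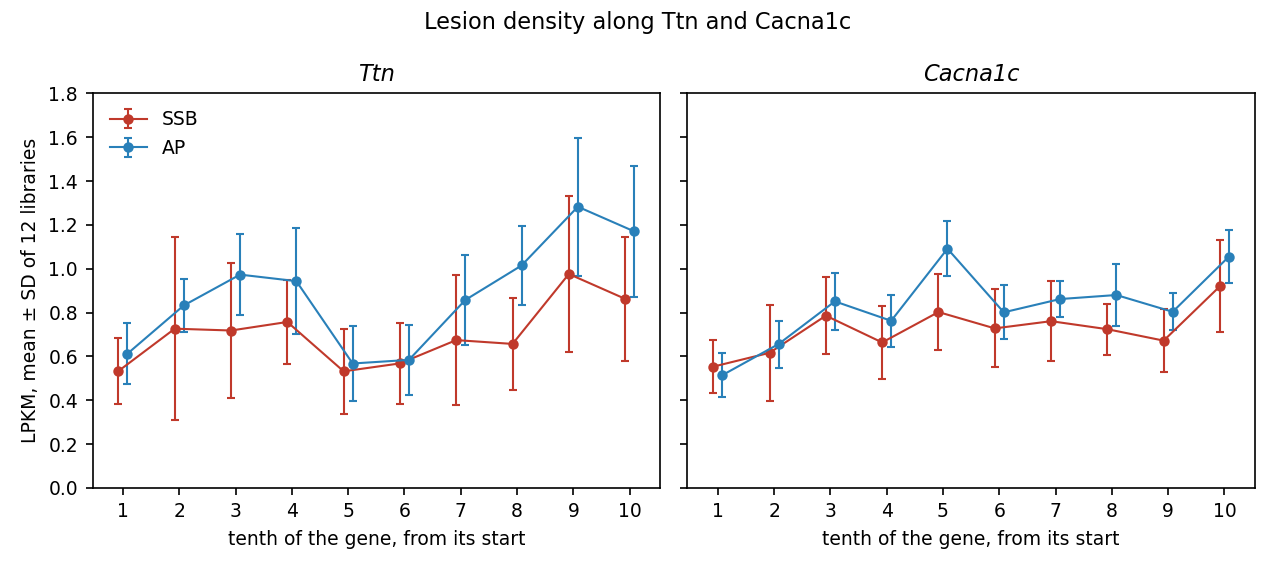
LPKM (y axis, mean ± SD of 12 libraries) in 10 equal parts of Ttn and Cacna1c from the gene start (x axis), for SSBs and AP sites. The AP values of Ttn lie above the SSB values in all 10 parts and reach 1.28 in the ninth, and those of Cacna1c do so in 9 parts.

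The strands of the members were hit about equally. Over the 33 members with a known strand, 51.0% ± 1.99 (SD, n = 12) of SSB positions and 50.4% ± 2.06 of AP positions lay on the strand that RefSeq gives for the gene, by the strand in the deposited lists. Ttn had 44.0% ± 6.10 of its SSBs and 51.8% ± 4.17 of its AP sites on that strand. In the hearts, the AP share of Ttn was 45.1% and 45.9%, below the 48.4% to 57.9% of the other 10 libraries. This difference was noticed after the values were seen and has no test. When the 9 long members with a known strand were cut into 3 equal parts, the last part held 35.3% ± 2.09 of SSB positions and 36.6% ± 1.98 of AP positions, and the first 31.8% ± 2.08 and 30.4% ± 1.50.

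Compared with the 100 kb on each side, the long members were denser in lesions, by a ratio of 1.26 ± 0.0602 for SSBs and 1.40 ± 0.0527 for AP sites (SD, n = 12). In heart the ratios were 1.36 and 1.30 for SSBs and 1.43 and 1.44 for AP sites, against 1.19 to 1.35 and 1.31 to 1.48 in the other tissues, with overlap. The single genes varied more than the tissues, from 0.871 for Kcnq1 to 1.92 for Slc8a1 in SSBs. Relative to protein-coding genes of their own length class, long members were at 1.17 ± 0.0393 for SSBs and 1.23 ± 0.0371 for AP sites, and short members at 1.31 ± 0.0980 and 1.34 ± 0.0792.

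The same ratio to protein-coding genes was taken for other lists. The 14 long genes of a list of 40 blood and immune genes stood at 1.25 for SSBs and 1.27 for AP sites, and the 26 short ones at 1.26 and 1.21. Of 38 hepatocyte genes the 4 long ones stood at 0.818 and 0.771 and the 34 short ones at 0.971 and 1.03. Of a further list of 43 cardiac genes the 12 long ones stood at 0.881 and 0.888, and the 31 short ones at 1.15 and 1.13. The summed AP density of all 43 was lower in both hearts (0.444 and 0.440) than in all other libraries (0.445 to 0.487), while for SSBs it overlapped, and the 34 short hepatocyte genes also had lower AP values in both hearts (0.532 and 0.557) than elsewhere (0.565 to 0.635). In heart against other tissues edgeR called 0 genes of each of these lists in either assay, and DESeq2 called 0 genes in all. For SSBs, 6 of 43 further cardiac genes had an unadjusted edgeR p under 0.05, all higher in heart. This held for 3 of 38 hepatocyte genes (2 higher) and 1 of 40 blood genes (higher), against 5.91% of all genes and 11.6% of long genes. The median log2 differences of these lists were 0.19, 0.05 and 0.07. For AP sites the counts were 1, 2 and 2, against 4.09% of all genes. For SSB against AP edgeR called Fhod3 and Zfpm2 of the further cardiac list and Alb of the hepatocyte list, all lower for SSBs, and Bach2, Cd4 and Dock2 of the blood list, of which 2 were lower and 1 higher, against 1.02% of all genes and 8.25% of long genes.

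At single nucleotides the members' lesions rarely recurred. Of 25725 nucleotides with an AP site in a member, 396 (1.54%) were listed in at least 2 of 12 libraries, and of 15366 with an SSB 72 (0.469%), with at most 3 libraries at any nucleotide. Of the 40945 nucleotides listed in all, 146 (0.357%) were seen in both assays. The AP libraries were the deeper ones, with a median of 739741 positions against 410489, and the part of depth in this difference was not tested.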

How the data were processed

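The authors mapped SSBs and AP sites with SSiNGLe and SSiNGLe-AP and deposited lists of lesion positions with strand and raw read count, not normalized. Each of 24 libraries had its own list at single-nucleotide resolution, with replicates kept apart. The libraries came from male mice aged 24 months, with 2 mice per tissue. The genome builds named per the labels are mm10 and GRCm38. The aligner and filters for these lists are not given in the sources used here.

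Positions were counted once per library over the whole span of each RefSeq gene (GRCm38.p6 tables, chromosomes 1 to 19, X and Y) with Python 3.11.15, numpy 2.4.6 and pandas 2.3.3, and figures were drawn with matplotlib 3.10.9. A position under overlapping genes counted for each of them. LPKM was computed with all positions of a library as the total. Genes with positions in at least 20% of the libraries of a fit were tested in R 4.3.3 with the quasi-likelihood F test of edgeR 4.0.16 (TMM normalization, tissue as covariate, Benjamini-Hochberg adjustment over all genes tested, threshold 0.05). The contrasts were heart minus the mean of the other 5 tissues, all 6 tissues, the heart contrast in SSBs minus that in AP sites, and SSB against AP. DESeq2 1.42.0, other scalings, filters on low counts, summed read counts, equal depth, left-out tissues, left-out libraries and a block on the replicate number were the alternatives. The scripts were tested on simulated data.

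Values in every library are given for the 10 longest members, members with an adjusted p under 0.05 in any test, the 5 members of smallest unadjusted p in heart against other tissues in each assay, and Myh6, Myh7, Tnnt2, Actc1, Myl2, Nppa and Nppb. The members and the lists were chosen with earlier results of these data known. Promoter windows of RefSeq cover part of the genes, and 33 of 41 members matched a promoter window with a strand.

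By the labels, the SSB and the AP library of a given tissue and number share a sample, which pairs them. The deviations of such pairs from their tissue means correlated at -0.0213 to 0.0256 over 4333 genes with at least 20 positions on average. Whether a number marks the same mouse in different tissues is not given, while by the study's methods each tissue was taken from 2 mice, so p-values measure the spread between these samples. Limits for counts of 0 cover counting error only, while the SDs and SEs also hold the spread between libraries. The RNA samples were not used here.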

Additional observations from a re-analysis of the deposited data

How the results depend on the processing

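None of the 41 genes passed in heart against other tissues, over 6 tissues or in the interaction under any alternative run. The 3 genes of the whole table called for SSBs in heart became 0 with DESeq2's size factors in edgeR, with library totals, with a mean of at least 5 positions, with DESeq2, with summed counts, without sperm, without bone marrow and at equal depth, and 0 to 2 when 1 library was left out. Over 6 tissues in SSBs the 48 genes became 15 with library totals, 82 with a mean of at least 5 positions, 4 with DESeq2, 16 with summed counts, 7 without sperm, 3 without bone marrow and 10 at equal depth. Leaving out 1 library gave 4 to 65, the lowest without the first bone marrow library. For AP sites over 6 tissues it gave 0 to 2, the 2 without the second liver library. For SSB against AP the 419 genes became 221 with DESeq2's size factors, 217 with library totals, 156 with DESeq2, 186 without bone marrow and 10 at equal depth, and 253 to 403 when 1 sample was left out, the lowest without the second bone marrow sample, followed by 258 without the first. The cardiac genes called were 2, but 0 at equal depth and 2 to 3 when 1 sample was left out. The third was Myom1, which passed without the first brain, second heart, first liver or second liver sample, and Slc8a1 passed without sperm. Summed density of all members in heart, with a log2 ratio of 0.05 for SSBs and 0.06 for AP sites, became 0.134 and -0.0129 as a mean of the members. The ratio to the flanks, 0.09 on the log2 scale for SSBs, became 0.166 with 50 kb flanks and 0.0534 to 0.127 when 1 library was left out. The cause of these shifts was not tested, apart from the fewer positions at equal depth. No called value changed its direction.

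With the replicate number as a block, heart against other tissues called 2 genes for SSBs and 0 for AP sites, the 6 tissues 59 and 0, the interaction 0, and SSB against AP with the sample as block 307, Ttn and Cacna1c among them. The block changed no call on a cardiac gene. The same number in different tissues correlated at -0.00903 to 0.0349 for SSBs and -0.219 to 0.155 for AP sites. Libraries that share a sample by the labels correlated at -0.0213 to 0.0256. This check therefore cannot tell whether the number pairs the tissues, and the main fits were run without such pairing.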
